A study of Mus musculus with 6 samples.

Results

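The proteins that carry zymogen granules of the pancreatic acinar cell to fusion at its surface were followed at the level of their mRNAs. The list holds 10 genes, chosen by name as the granule proteins Gp2 and Sycn, the membrane fusion proteins Vamp2, Vamp8, Snap23 and Stx3, the fusion regulator Stxbp2, the granule GTPases Rab3d and Rab27b, and the calcium sensor Syt7. Values were found for 9 of the 10 among the 22556 genes of the expression tables, and Gp2 is not listed there. All 9 passed the filter on low values, which asked for an average of 1 TPM or more over the mice. TPM, the unit of the tables, is a count of transcripts scaled to gene length and to a common total.

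RNA-sequencing was made on total RNA of the whole pancreas of 6 wild type C57BL/6 mice at postnatal week 8, in 3 groups of 2. The saline mice served as controls, the AP mice received cerulein, which induces acute pancreatitis (AP), and the polyI:C-treated AP mice received polyI:C plus cerulein. The study describes polyI:C as injected before cerulein, so these mice were pretreated and not treated after pancreatitis had begun. Cerulein mimics cholecystokinin and overstimulates acinar cells, and polyI:C is a synthetic double-stranded RNA. The comparisons ask how the exocytosis genes differ between pancreatitis and control tissue, and between pancreatitis with and without polyI:C.

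TPM divides the reads of a gene by its length and scales the sum over all listed genes to the same total in every mouse, so it holds no depth. Low values times exon length fell near whole multiples of a single step, within a tolerance of 0.1, in 51.1% to 62.4% of cases, against 19.7% to 20.6% with lengths shuffled between genes. Library sizes estimated from the step were 3964656 and 3314274 reads for saline, 6907451 and 8853947 for AP, and 8828023 and 10835232 for polyI:C-treated AP. A single read on a transcript of median length thus equals 0.217 and 0.264 TPM in the controls and as little as 0.0958 TPM elsewhere. Depth differed with the groups, and effects of the 2 cannot be told apart.

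An acinar cell stores digestive enzymes in zymogen granules and releases them at its apical surface when calcium rises after a secretagogue. Rab GTPases bring granules to the membrane, and SNARE proteins on both membranes then zip together under the control of Sec1/Munc18 proteins to open a fusion pore. Pancreatic acinar cells hold the granules for which this machinery was described, and in whole tissue it is also expressed in endocrine, nerve and immune cells.

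Levels of the members spanned a wide range. In the saline mice Sycn was the most abundant of all listed genes, with 92809.5 ± 8405 TPM (SD, n = 2), and Syt7 was the lowest member, with 3.73 ± 0.147 TPM. Between them stood Vamp8 with 239 ± 52.5 TPM, Rab3d with 195 ± 9.43 TPM, Stxbp2 with 40.5 ± 1.05 TPM, Snap23 with 39.5 ± 0.614 TPM, Rab27b with 37.1 ± 1.74 TPM, Stx3 with 15.6 ± 0.559 TPM and Vamp2 with 10.5 ± 4.11 TPM. Values overlapped between Vamp8 and Rab3d and between Stxbp2 and Snap23, so these neighbours were not separated in the controls. In both groups given cerulein no neighbours in the order overlapped, and Stx3 stood above Rab27b instead of below it.

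**Figure D1:**
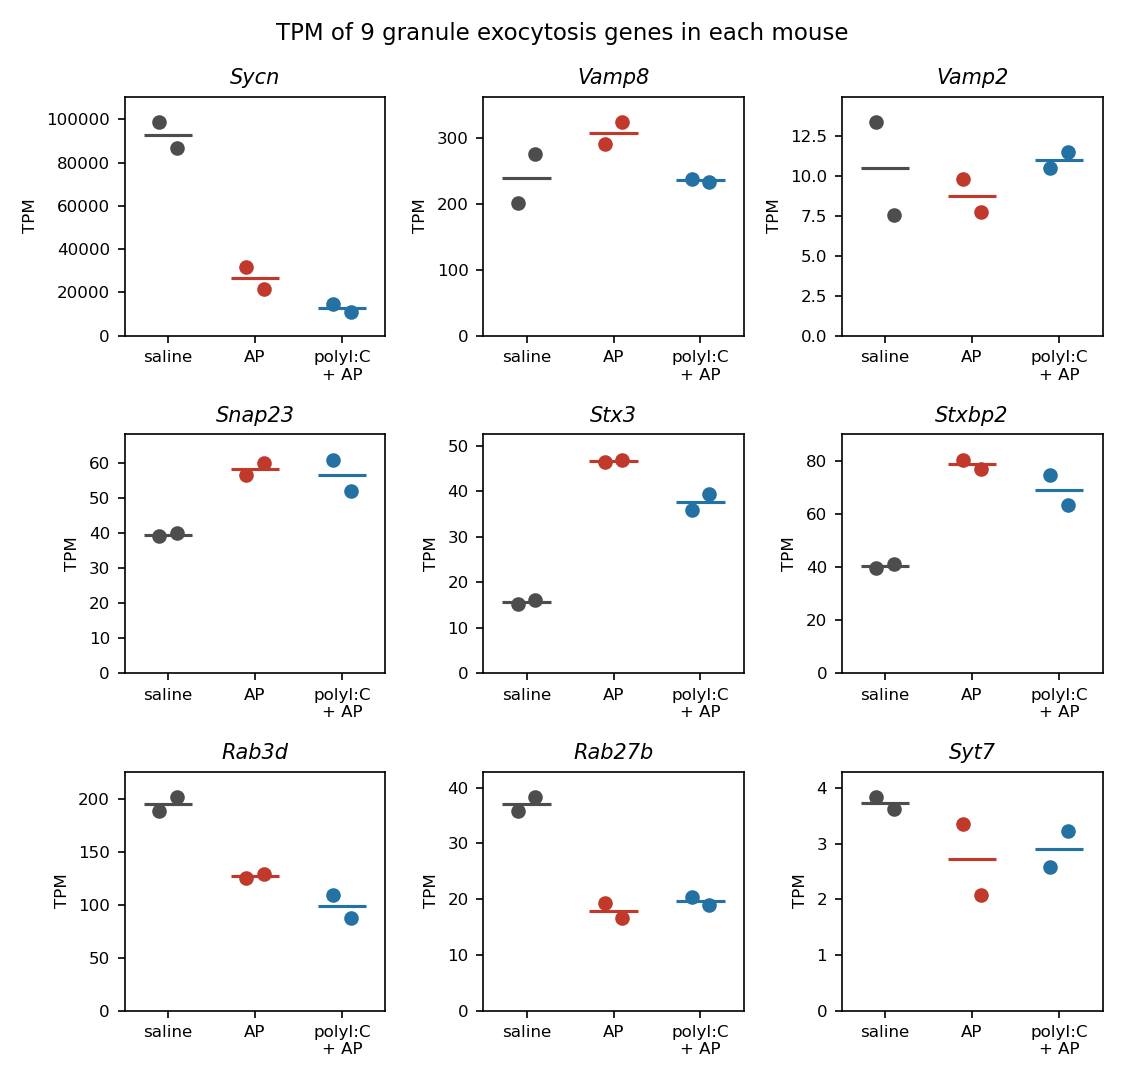
TPM of the 9 members in each mouse, with points for mice, bars for the mean of the 2 mice of a group and a linear axis from 0 that differs between panels. Sycn lies at 98753 and 86866 TPM in saline mice, compared with 14466 and 11044 TPM in the polyI:C-treated AP mice, while Stx3 lies at 15.2 and 16 TPM in saline mice, compared with 46.4 and 47 TPM in the AP mice.

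In AP against saline mice, 3 of the 9 members were called, with an adjusted p no higher than 0.05 and a change of 2-fold or more, 1 of them (Stx3) raised and 2 (Sycn and Rab27b) lowered. Of the 16814 genes tested, 18.2% were raised and 4.03% lowered by the same rule. By that adjusted p without a limit on size, 3 members were higher and 3 lower, beside 33% and 7.39% of all genes. Changes were computed on log2(TPM + 0.5), which understates those of low genes. In bulk tissue, fewer cells of a type and less RNA per cell cannot be told apart. The median of all tested genes was itself 0.45 above zero on the log2 scale, and 0.05 after median-of-ratios scaling, so each member is also given relative to this median for this comparison. The median over the 9 members was -0.20. Of all calls in this comparison 81.8% were raised, against 56.1% after median-of-ratios scaling, 64.8% with voom on the estimated reads and 71.1% after rescaling without the 15 genes over 1% of a library, a setting chosen after seeing the data. Of all genes, 10.7% were raised and 5.82% lowered by voom.

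The comparison of polyI:C-treated AP with saline mice had 1 member raised (Stx3) and 1 lowered (Sycn), beside 16.9% and 2.97% of all genes. Without a limit on size, 3 members were higher and 3 lower, beside 33.4% and 5.8%. The median of all tested genes was 0.48 and that of the members -0.00. Here 85% of all calls were raised, against 57.4% after median-of-ratios scaling, 64.9% with voom and 72.1% after the rescaling. Voom called 8.94% raised and 4.84% lowered of all genes. The saline mice are shared with the first comparison.

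Between polyI:C-treated AP and AP mice, which were also part of the other comparisons, limma called 0 members by either rule, beside 0.44% of all genes raised and 0.404% lowered with the 2-fold limit, and 0.714% higher and 0.517% lower without it. At an unadjusted p under 0.05, 4 members (Sycn, Vamp8, Rab3d and Stx3) were counted, all lower with polyI:C, beside 13.9% of all genes in either direction. With voom on the estimated reads 1 member, Sycn, passed, lowered, beside 0.66% raised and 1.25% lowered of all genes. Of all calls here 52.1% were raised, against 34.5% with voom. Over all genes limma called 142, and 53 without the first polyI:C-treated AP mouse, of which 48 (90.6%) were raised and 5 lowered. It called 0 without the first AP mouse, the second AP mouse or the second polyI:C-treated AP mouse, with 1511, 1421 and 1523 genes at an unadjusted p under 0.05. The smallest two-sided p of an exact permutation test is 0.333 in this design, and the adjusted p comes from a variance that limma shares between genes.

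**Figure D2:**
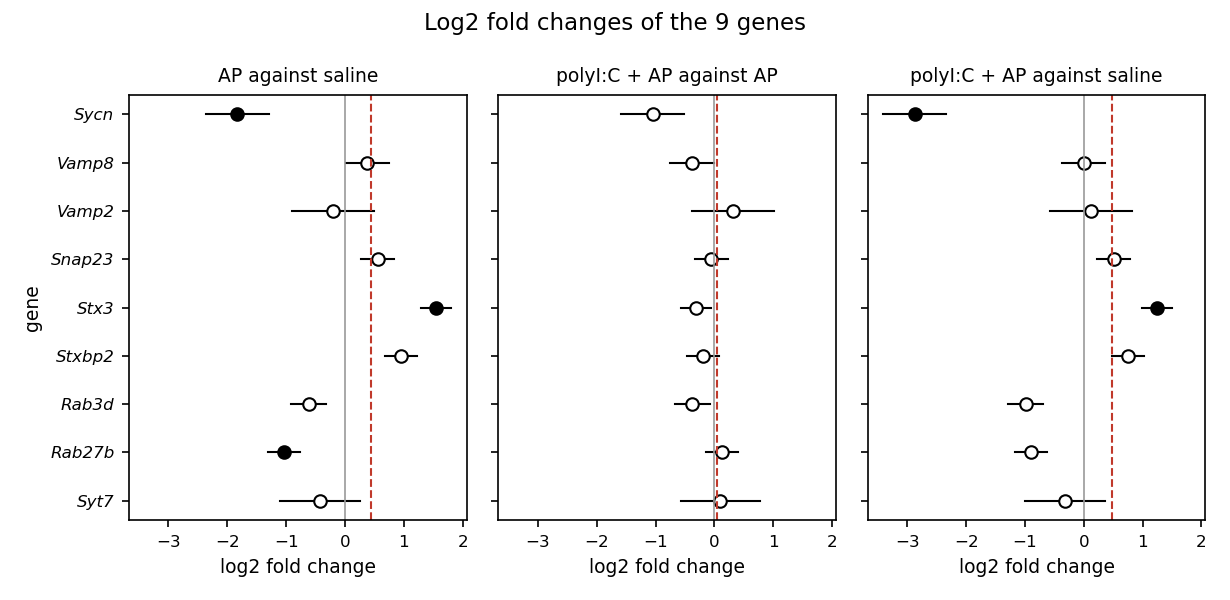
Log2 fold changes of the 9 members in the 3 comparisons, on the log2(TPM + 0.5) scale with 95% confidence intervals from limma, filled points for calls, a grey line at 0 and a dashed line at the median of all tested genes. Sycn has the lowest value in each panel, from -1.05 to -2.87, and Stx3 the highest in both comparisons against saline mice.

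Syncollin, encoded by Sycn (ENSMUSG00000084174, chromosome 7, 28540885 to 28542209, plus strand, GRCm38), is a protein of the granule lumen that binds the inner face of the granule membrane. Its transcript was measured at 98753 and 86866 TPM in saline mice, at 31898 and 21348 TPM in AP mice and at 14466 and 11044 TPM in polyI:C-treated AP mice. All 3 groups were separate, with the saline mice highest and the polyI:C-treated AP mice lowest. Sycn alone made up 9.88% and 8.69% of all listed TPM in the saline mice and 1.45% and 1.1% in the polyI:C-treated AP mice. It fell 3.55-fold in AP against saline mice (log2 fold change -1.83, SE 0.22, adjusted p = 0.00111), which is -2.28 relative to the median gene. The fall in polyI:C-treated AP against saline mice was 7.33-fold (log2 fold change -2.87, SE 0.22, adjusted p = 0.000244). Between polyI:C-treated AP and AP mice the log2 fold change was -1.05 with an adjusted p of 0.0917, which missed the threshold. That fall passed in 2 of 17 alternatives, with the replicate number as a block and with voom on the estimated reads. The call in AP mice ended when the second AP mouse was left out (log2 fold change -1.54, adjusted p = 0.0657) and when only the 4 mice compared were fitted (adjusted p = 0.0749), and over the alternatives adjusted p ran from 0.000182 to 0.0749 for Sycn.

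Over the 6 mice, the protein-coding genes averaging 10 TPM or more whose log2 values followed Sycn most closely were Slc38a5 (r = 0.9957), Derl3 (r = 0.9950) and Pycr1 (r = 0.9940), of 8495 compared. Slc38a5 encodes an amino acid transporter, Derl3 a component of protein degradation at the endoplasmic reticulum, and Pycr1 an enzyme of proline synthesis. Derl3 stood at 350.2 and 330.3 TPM in saline mice, compared with 8.28 and 5.45 TPM in the polyI:C-treated AP mice. These r values are a description over mice that fall into 3 groups.

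The further granule proteins on a list of 16 had values for 11, and 4 of the 11 were lowered in AP against saline mice, beside 18.2% raised and 4.03% lowered of all genes, with a median log2 fold change of 0.32 against 0.45. Voom gave 0 raised and 5 lowered. Pla2g1b, a secreted phospholipase, was measured at 2564 and 1299.8 TPM in saline mice, at 457 and 359 TPM in AP mice and at 228 and 207 TPM in polyI:C-treated AP mice. Tmed6, of the p24 family of cargo receptors, stood at 4618 and 4607 TPM in saline mice, at 1114 and 1018 TPM in AP mice and at 749 and 741 TPM in polyI:C-treated AP mice. Cuzd1, a granule membrane protein, stood at 12187 and 12622 TPM in saline mice, at 3704 and 3045 TPM in AP mice and at 3853 and 3269 TPM in polyI:C-treated AP mice. The saline mice were separate and highest for all 3 genes. Log2 fold changes in AP against saline mice were -2.17 for Pla2g1b (adjusted p = 0.0017), -2.11 for Tmed6 (adjusted p = 3.36e-05) and -1.88 for Cuzd1 (adjusted p = 0.000185). Klk1, a tissue kallikrein with close relatives whose shared reads were not measured here, fell from 29456 and 23910.0 TPM to 13591 and 9855 TPM (log2 fold change -1.20, adjusted p = 0.00257). Its call ended without the second AP mouse (adjusted p = 0.105), without the second polyI:C-treated AP mouse (adjusted p = 0.0672) and with only the 4 mice compared (adjusted p = 0.102). Over the alternatives its adjusted p ran from 0.000472 to 0.105 for Klk1. Reg3a of this list was picked out after its values were seen. It stood at 2907 and 738 TPM in saline, 2829 and 2387 TPM in AP and 19166 and 22317 TPM in polyI:C-treated AP mice. The polyI:C-treated AP mice were highest with no overlap, but limma did not call Reg3a against AP mice. For the list, limma called 0 of the 11 between polyI:C-treated AP and AP mice, with 4 at an unadjusted p under 0.05, beside 13.9% of all genes, and 1 called by voom. Against saline mice 1 was raised and 5 were lowered with polyI:C, beside 16.9% raised and 2.97% lowered of all genes, and 1 raised and 5 lowered with voom.

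On the granule membrane, VAMP8 is the main R-SNARE of stimulated secretion and VAMP2 marks a smaller pool of granules. Vamp8 was measured at 202 and 276 TPM in saline mice, at 291 and 324 TPM in AP mice and at 237 and 233 TPM in polyI:C-treated AP mice. The AP mice were highest, and the saline and polyI:C-treated AP mice overlapped. No comparison passed the test, with log2 fold changes of 0.38 in AP against saline mice (adjusted p = 0.0953, -0.07 relative to the median gene), -0.38 in polyI:C-treated AP against AP mice (adjusted p = 0.344) and -0.00 in polyI:C-treated AP against saline mice (adjusted p = 0.996). The first of these turned to -0.05 after median-of-ratios scaling and was 0.60 without the second saline mouse (adjusted p = 0.0131), in a range of adjusted p over the alternatives from 0.0131 to 0.84 for Vamp8.

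Vamp2 was measured at 13.4 and 7.57 TPM in saline mice, at 9.79 and 7.74 TPM in AP mice and at 10.5 and 11.5 TPM in polyI:C-treated AP mice. The saline mice differed most from each other and enclosed the AP mice, with about 74.2 and 34.4 estimated reads behind their values. The log2 fold change in AP against saline mice was -0.20, with a 95% interval from -0.90 to 0.50 and an adjusted p of 0.628. It is -0.65 relative to the median gene and turned to 0.19 without the first saline mouse. Vamp8 exceeded Vamp2, on this scale per length, by 15.1-fold and 36.4-fold in the saline mice, 29.7-fold and 41.8-fold with cerulein alone and 22.6-fold and 20.3-fold in the polyI:C-treated AP mice. Among 6 VAMP genes, Vamp8 held 67.2% and 74.3% of the summed TPM in saline mice, 64.1% and 68% of it in AP mice, and 59.6% and 60.4% of it in polyI:C-treated AP mice. Vamp3, a VAMP of recycling endosomes, held 18.3% and 16.2% of the summed TPM in saline mice, 25.8% and 24% of it in AP mice, and 28.4% and 26.6% of it in polyI:C-treated AP mice.

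Syntaxin 3, encoded by Stx3 (ENSMUSG00000041488, chromosome 19, 11775118 to 11819403, minus strand), is the syntaxin of the granule membrane in acinar cells and takes part in fusion of granules with each other. Stx3 was measured at 15.2 and 16 TPM in saline mice, at 46.4 and 47 TPM in AP mice and at 35.9 and 39.3 TPM in polyI:C-treated AP mice. The 3 groups were separate, with the saline mice lowest and the AP mice highest. Stx3 rose 2.93-fold in AP against saline mice (log2 fold change 1.55, SE 0.11, adjusted p = 0.00015), which is 1.10 relative to the median gene, and passed under all 17 alternative settings. In polyI:C-treated AP against saline mice it rose 2.36-fold (log2 fold change 1.24, SE 0.11, adjusted p = 0.000335), which is 0.76 relative to the median gene. That second call ended after median-of-ratios scaling (log2 fold change 0.80, adjusted p = 0.00316) and with voom on the estimated reads (log2 fold change 0.99, adjusted p = 0.00213), both short of 2-fold, and over the alternatives adjusted p ran from 0.000204 to 0.0116 for Stx3. Between polyI:C-treated AP and AP mice the log2 fold change was -0.31 (adjusted p = 0.265).

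Genes that followed Stx3 most closely over the 6 mice were Topbp1 (r = 0.9995), Neurl3 (r = 0.9991) and Egfr (r = 0.9989). Topbp1 encodes a protein of the DNA damage response, Neurl3 a ubiquitin ligase and Egfr the receptor of epidermal growth factor. Egfr stood at 21 and 22.8 TPM in saline mice, at 69.5 and 67.9 TPM in AP mice and at 52.5 and 54.7 TPM in polyI:C-treated AP mice.

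SNAP23 supplies a pair of helices to the SNARE bundle from the plasma membrane. Snap23 was measured at 39.1 and 40 TPM in saline mice, at 56.7 and 60.1 TPM in AP mice and at 61 and 52.1 TPM in polyI:C-treated AP mice. The saline mice were lowest and separate, while the AP and polyI:C-treated AP mice overlapped. It was 1.47-fold higher in AP against saline mice (log2 fold change 0.56, SE 0.12, adjusted p = 0.00913), short of 2-fold and 0.11 relative to the median gene. After median-of-ratios scaling the value was 0.13 with an adjusted p of 0.414. Adjusted p was 0.105 with voom, 0.0624 after the added rescaling, and 0.0543 and 0.0749 without the first and the second AP mouse, in a range over the alternatives from 0.00668 to 0.414 for Snap23. Snap23 was 1.42-fold higher in polyI:C-treated AP against saline mice (adjusted p = 0.0139), where adjusted p was 0.744 after median-of-ratios scaling, 0.228 with voom, 0.144 after the added rescaling, 0.0546 with 1 common prior variance and 0.0608 without the first polyI:C-treated AP mouse, in a range from 0.0101 to 0.744 for Snap23. Stx3 stood at 0.389 and 0.401 of the level of Snap23 per length in the saline mice, 0.818 and 0.783 with cerulein alone and 0.588 and 0.755 in the polyI:C-treated AP mice.

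Of 30 other SNARE genes, 29 had values and 28 were tested, with 5 raised and 1 lowered in AP against saline mice, beside 18.2% raised and 4.03% lowered of all genes, and 2 raised and 1 lowered with voom. The median was 0.61 against 0.45 for all genes. Stx11, a syntaxin known from the lytic granules of immune cells, stood at 3.72 and 1.41 TPM in saline mice, at 38.5 and 48.3 TPM in AP mice and at 23.2 and 28.1 TPM in polyI:C-treated AP mice, the saline mice far below the others. Its log2 fold change in AP against saline mice was 3.94 (SE 0.36, adjusted p = 0.000356). Stx4a, a syntaxin of the basolateral surface, rose from 9.66 and 5.78 TPM in the saline mice to 25.9 and 22.9 TPM in the AP mice (log2 fold change 1.64, adjusted p = 0.00287). Vamp5 and Stx1a also rose, with log2 fold changes of 1.41 and 1.34 (adjusted p = 0.00813 and 0.0108). Bet1, which serves transport from the endoplasmic reticulum to the Golgi, fell from 82.8 and 93.5 TPM to 43.2 and 40.9 TPM (log2 fold change -1.06, adjusted p = 0.00068). Ykt6, the most abundant of the list in the saline mice, was 1.98-fold higher and short of the threshold, which it passed without the second saline mouse (log2 fold change 1.24).

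Some of these calls ended when a mouse was left out. Without the first AP mouse, adjusted p was 0.0552 for Stx4a, 0.091 for Vamp5 and 0.0882 for Stx1a. Without the second AP mouse it was 0.0755 for Vamp5 and 0.0916 for Stx1a, and without the second saline mouse Bet1 came to a log2 fold change of -0.97. Stx1a came to 0.97 after median-of-ratios scaling, and its adjusted p was 0.0672 with voom and 0.0585 with only the 4 mice compared, while that of Vamp5 was 0.0509 with voom. Over the alternatives adjusted p ran from 0.00198 to 0.0552 for Stx4a, 0.00623 to 0.091 for Vamp5 and 0.00634 to 0.0916 for Stx1a. For the list, limma called 0 of the 28 between polyI:C-treated AP and AP mice, with 2 at an unadjusted p under 0.05, beside 13.9% of all genes, and 0 called by voom. Against saline mice 5 were raised and 1 lowered with polyI:C, beside 16.9% raised and 2.97% lowered of all genes, and 3 raised and 1 lowered with voom.

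MUNC18-2, encoded by Stxbp2, is the Sec1/Munc18 protein that binds syntaxin 3 at the apical side of epithelial cells. Stxbp2 was measured at 39.7 and 41.2 TPM in saline mice, at 80.6 and 77.1 TPM in AP mice and at 74.6 and 63.4 TPM in polyI:C-treated AP mice. The saline mice were lowest, and the 3 groups were separate. It was 1.94-fold higher in AP against saline mice (log2 fold change 0.95, SE 0.11, adjusted p = 0.00103), just short of 2-fold and 0.50 relative to the median gene, and 1.69-fold higher in polyI:C-treated AP against saline mice (adjusted p = 0.00271). The latter adjusted p was 0.0855 after median-of-ratios scaling, in a range over the alternatives from 0.0018 to 0.0855 for Stxbp2. Among the 3 Munc18 genes, Stxbp2 held 55.7% and 57% of the summed TPM in saline mice, 61.2% and 62.8% of it in AP mice, and 61.8% and 58.6% of it in polyI:C-treated AP mice. Stxbp3 held 39% and 41.5% of the summed TPM in saline mice, 35.2% and 32.7% of it in AP mice, and 33.3% and 36.6% of it in polyI:C-treated AP mice.

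Of 23 other Sec1/Munc18, NSF and priming genes, all had values and 19 were tested. Vps45, which acts in endosomal fusion, was the 1 gene raised in AP against saline mice, from 8.93 and 5.49 TPM to 17.1 and 22.4 TPM (log2 fold change 1.42, adjusted p = 0.00497), and its adjusted p was 0.077 without the second AP mouse, in a range over the alternatives from 0.00342 to 0.077 for Vps45. All genes had 18.2% raised, voom gave 1 raised and 0 lowered in the list, and the median of the list was 0.37 against 0.45. Scfd1, the most abundant of the list in the saline mice, was measured at 181 and 256 TPM in saline mice, at 260.3 and 296 TPM in AP mice and at 313 and 266 TPM in polyI:C-treated AP mice and did not pass (log2 fold change 0.37, adjusted p = 0.151), turning to -0.06 after median-of-ratios scaling. For the list, limma called 0 of the 19 between polyI:C-treated AP and AP mice, with 3 at an unadjusted p under 0.05, beside 13.9% of all genes, and 0 called by voom. Against saline mice 3 were raised with polyI:C, beside 16.9% of all genes, and 1 raised and 0 lowered with voom.

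RAB3D is a GTPase long used as a marker of mature zymogen granules. Rab3d was measured at 188 and 202 TPM in saline mice, at 125 and 129 TPM in AP mice and at 109.5 and 87.7 TPM in polyI:C-treated AP mice. The saline mice were highest and the polyI:C-treated AP mice lowest, with no overlap between the 3 groups. It was 1.53-fold lower in AP against saline mice (log2 fold change -0.61, SE 0.12, adjusted p = 0.00798), which is -1.06 relative to the median gene. Adjusted p of that difference was 0.0508 without the second saline mouse, 0.0844 without the first AP mouse and 0.0744 without the second, in a range over the alternatives from 0.00103 to 0.0844 for Rab3d, with log2 fold changes of -1.04 to -0.56. Rab3d was 1.99-fold lower in polyI:C-treated AP against saline mice (log2 fold change -0.99, SE 0.12, adjusted p = 0.00129), just short of 2-fold. Median-of-ratios scaling took both past the threshold, with log2 fold changes of -1.04 and -1.44. The second also passed with voom (-1.27), after the added rescaling (-1.23), without the first saline mouse (-1.04) and without the first polyI:C-treated AP mouse (-1.15). Among the 4 Rab3 genes, Rab3d held 94.1% and 94.3% of the summed TPM in saline mice, 96.7% and 97.5% of it in AP mice, and 95.7% and 92.7% of it in polyI:C-treated AP mice.

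RAB27B acts beside RAB3D on zymogen granules. Rab27b was measured at 35.9 and 38.3 TPM in saline mice, at 19.2 and 16.6 TPM in AP mice and at 20.3 and 19 TPM in polyI:C-treated AP mice. The saline mice were highest and separate, and the AP and polyI:C-treated AP mice overlapped. Rab27b fell 2.04-fold in AP against saline mice (log2 fold change -1.03, SE 0.11, adjusted p = 0.000747), which is -1.48 relative to the median gene. It was 1.87-fold lower in polyI:C-treated AP against saline mice (log2 fold change -0.90, SE 0.11, adjusted p = 0.00135), short of 2-fold. The first value lay close to the 2-fold limit and came to -0.98 without the second saline mouse and -0.93 without the second AP mouse. The second passed after median-of-ratios scaling (-1.35), with voom (-1.19) and after the added rescaling (-1.15).

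Its paralogue Rab27a was measured at 32.4 and 33.6 TPM in saline mice, at 23.5 and 24.7 TPM in AP mice and at 28.5 and 22.7 TPM in polyI:C-treated AP mice. Rab27a stood at 0.904 and 0.877 of the Rab27b level per length in the saline mice, below it, and at 1.22 and 1.48 with cerulein alone and 1.4 and 1.2 in the polyI:C-treated AP mice, above it. The genes that followed Rab27b most closely over the 6 mice were Tfdp2 (r = 0.9990), Lsm14b (r = 0.9980) and Klk1b11 (r = 0.9964). Tfdp2 encodes a partner of E2F transcription factors, Lsm14b an RNA-binding protein and Klk1b11 a kallikrein relative. Tfdp2 stood at 60.4 and 69.9 TPM in saline mice, compared with 17.1 and 13.2 TPM in the AP mice.

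Of 37 other secretory Rab GTPases and regulators, all had values and 34 were tested, with 7 raised and 2 lowered in AP against saline mice, beside 18.2% raised and 4.03% lowered of all genes, and 3 raised and 3 lowered with voom. The median was 0.54 against 0.45. Rab8b, of the Rab8 family that acts in transport to the surface, was measured at 15.8 and 13 TPM in saline mice, at 58.4 and 55.4 TPM in AP mice and at 23.9 and 27.9 TPM in polyI:C-treated AP mice, highest in the AP mice with no overlap. It rose in AP against saline mice (log2 fold change 1.95, adjusted p = 0.000177) and was the 1 gene of the list to pass in polyI:C-treated AP against AP mice, lowered by 2.18-fold (log2 fold change -1.12, SE 0.14, adjusted p = 0.0247). Adjusted p for that fall ran from 0.0522 to 0.29 without the second saline mouse or without any single mouse of the groups compared, and was 0.0545 without the filter, 0.146 with 1 common prior variance and 0.0835 with limma's default trend, the full range over the alternatives being 0.00465 to 0.29 for Rab8b, at log2 fold changes of -1.24 to -1.01. Without the first AP mouse, the second AP mouse or the second polyI:C-treated AP mouse limma called no gene at all, so the lost calls there say nothing about Rab8b. Without the second saline mouse or the first polyI:C-treated AP mouse it still called other genes, but not Rab8b.

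Rab25, of recycling endosomes, rose from 18.9 and 17.6 TPM in the saline mice to 61 and 50.8 TPM in the AP mice (log2 fold change 1.59, adjusted p = 0.00044). Rab38, known from melanosomes, and Rap1b, a Ras relative, rose by log2 fold changes of 1.47 and 1.25 (adjusted p = 0.0319 and 0.00137). Rab3a, the Rab3 of synaptic vesicles, fell from 11.5 and 12.2 TPM to 3.44 and 2.97 TPM (log2 fold change -1.74, adjusted p = 0.00505). Rab26, which takes part in granule maturation, fell from 36.5 and 37.2 TPM to 18.6 and 15.7 TPM (log2 fold change -1.08, adjusted p = 0.0062). Rab2a, the most abundant of the list in the saline mice, overlapped between all groups at 551 and 614 TPM in saline mice, at 565 and 622 TPM in AP mice and at 570.1 and 543 TPM in polyI:C-treated AP mice, and its log2 fold change of 0.03 turned to -0.40 after median-of-ratios scaling and -0.21 with voom.

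Leaving out a mouse moved some of these calls too. Without the first AP mouse adjusted p for Rab3a was 0.0505, and without the second it was 0.0665 for Rab3a and 0.0759 for Rab26. The call of Rab38 ended without any single mouse (adjusted p from 0.0544 to 0.196), after median-of-ratios scaling (adjusted p = 0.1), with voom (adjusted p = 0.188), with only the 4 mice compared (adjusted p = 0.123), with the replicate number as a block (adjusted p = 0.0504) and after the added rescaling (adjusted p = 0.0578). Over the alternatives adjusted p ran from 0.0267 to 0.196 for Rab38, 0.00294 to 0.0665 for Rab3a and 0.00233 to 0.0759 for Rab26. Rap1b came to 0.82 after median-of-ratios scaling and 0.99 with voom. Of the 34 genes 2 were raised and 2 lowered in polyI:C-treated AP against saline mice, beside 16.9% raised and 2.97% lowered of all genes, and 2 raised and 2 lowered with voom. In the comparison with AP mice 1 was lowered with polyI:C, beside 0.404% of all genes, with 6 at an unadjusted p under 0.05, beside 13.9%, and 2 lowered with voom.

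Synaptotagmin 7, encoded by Syt7, is a calcium sensor with high affinity that acts in slow modes of exocytosis. Syt7 was measured at 3.83 and 3.63 TPM in saline mice, at 3.36 and 2.07 TPM in AP mice and at 2.57 and 3.22 TPM in polyI:C-treated AP mice. The saline mice were highest, and the AP and polyI:C-treated AP mice overlapped. Between 32.4 and 79.3 estimated reads lay behind each value. No comparison passed, and the log2 fold change in AP against saline mice was -0.42 with a 95% interval from -1.10 to 0.25 (adjusted p = 0.283), which is -0.88 relative to the median gene. Of its exon bases 5.13% lie opposite Gm26859 on the other strand, and whether the counting used strand is not given in the sources used here. The exons of the other 8 members overlap no other annotated gene.

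Of 28 other synaptotagmins and synaptotagmin-like effectors, 26 had values and 16 were tested, with 2 raised and 3 lowered in AP against saline mice, beside 18.2% raised and 4.03% lowered of all genes, and 2 raised and 3 lowered with voom. The median was 0.41 against 0.45. Myrip, which links RAB27 proteins to myosins, was measured at 37.4 and 35.4 TPM in saline mice, at 4.42 and 6.14 TPM in AP mice and at 8.48 and 7.43 TPM in polyI:C-treated AP mice, highest in the saline mice with no overlap. It fell 6.46-fold in AP against saline mice (log2 fold change -2.69, SE 0.18, adjusted p = 0.000138). Syt3, a calcium sensor, fell from 18.3 and 15.1 TPM to 7.47 and 7.2 TPM (log2 fold change -1.13, adjusted p = 0.00589), and its adjusted p was 0.052 without the first AP mouse and 0.0606 without the second, while its log2 fold change came to -0.99 without the first saline mouse. Sytl5, a RAB27 effector, fell from 30.1 and 31.1 TPM to 14.6 and 14.6 TPM (log2 fold change -1.04, adjusted p = 0.00438).

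Syt12 and Esyt1 were the 2 genes of this list counted as raised. Syt12 stood at 1.7 and 0.13 TPM in saline mice, at 7.11 and 9.4 TPM in AP mice and at 8.51 and 8.74 TPM in polyI:C-treated AP mice. With 13.7 and 0.862 estimated reads in the saline mice it was kept by the filter only through the groups where it is high, so its test is not used as support. It counts among the raised genes of this list and of all lists together against saline mice, and each of these numbers is 1 lower without it, by limma and by voom. Esyt1, which tethers the endoplasmic reticulum to the plasma membrane, rose from 62.8 and 52.3 TPM to 182 and 179.7 TPM (log2 fold change 1.65, adjusted p = 0.000229). Its relative Esyt2, the most abundant of the list in the saline mice, was 1.57-fold higher and short of 2-fold. Over the alternatives adjusted p ran from 0.00197 to 0.0606 for Syt3. For the list, limma called 0 of the 16 between polyI:C-treated AP and AP mice, with 4 at an unadjusted p under 0.05, beside 13.9% of all genes, and 0 called by voom. Against saline mice 2 were raised and 2 lowered with polyI:C, beside 16.9% raised and 2.97% lowered of all genes, and 1 raised and 2 lowered with voom.

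The exocyst tethers secretory vesicles to the plasma membrane before SNARE pairing. All 9 of its genes on the list were tested, and 4 were raised in AP against saline mice, beside 18.2% of all genes, at a median of 0.90 against 0.45. Voom called 2 of the 9 raised. Exoc4 was measured at 17.7 and 17 TPM in saline mice, at 65.1 and 66 TPM in AP mice and at 78.4 and 74.6 TPM in polyI:C-treated AP mice, lowest in the saline mice and with no overlap between groups. It rose 3.7-fold in AP against saline mice (log2 fold change 1.89, SE 0.08, adjusted p = 4.22e-05). Exoc1, Exoc6b and Exoc2 rose by log2 fold changes of 1.42, 1.06 and 1.02 (adjusted p = 0.000485, 0.00307 and 0.000369). The last 2 lost the 2-fold size after median-of-ratios scaling (0.65 and 0.59), with voom (0.84 and 0.77) and after the added rescaling (0.87 and 0.81). Exoc2 came to 0.95 without the first AP mouse. Exoc6b came to 0.81 without the second saline mouse and to an adjusted p of 0.0542 and 0.0513 without the first and second AP mouse. Exoc6, the most abundant in the saline mice, did not pass (log2 fold change 0.26, adjusted p = 0.142), and turned to -0.17 after median-of-ratios scaling. Over the alternatives adjusted p ran from 0.00201 to 0.0542 for Exoc6b. For the list, limma called 0 of the 9 between polyI:C-treated AP and AP mice, with 1 at an unadjusted p under 0.05, beside 13.9% of all genes, and 0 called by voom. Against saline mice 4 were raised with polyI:C, beside 16.9% of all genes, and 2 raised and 0 lowered with voom.

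Transcription factors of the acinar secretory state were followed in a list of 10, all tested. Bhlha15, which encodes the basic helix-loop-helix factor MIST1 of secretory cells, was measured at 391 and 326 TPM in saline mice, at 53.6 and 46.4 TPM in AP mice and at 161 and 171 TPM in polyI:C-treated AP mice. The 3 groups were separate, with the AP mice lowest and the polyI:C-treated AP mice between them and the saline mice. It fell 7.1-fold in AP against saline mice (log2 fold change -2.83, SE 0.12, adjusted p = 3.94e-05) and was 3.31-fold higher in polyI:C-treated AP against AP mice (log2 fold change 1.73, SE 0.12, adjusted p = 0.00397). Rbpjl, a subunit of the PTF1 complex, stood at 238 and 195 TPM in saline mice, at 104 and 79.8 TPM in AP mice and at 196 and 191 TPM in polyI:C-treated AP mice, lowest in the AP mice, with overlap between the other groups. It fell in AP against saline mice by a log2 fold change of -1.23 (adjusted p = 0.0012) and rose by 1.08 in polyI:C-treated AP against AP mice (adjusted p = 0.0335).

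Bhlha15 passed between polyI:C-treated AP and AP mice in 12 of 17 alternatives, with log2 fold changes of 1.63 to 1.83, and Rbpjl in 6 of 17, with 0.89 to 1.27. Without any single mouse of the groups compared, adjusted p ran from 0.0656 to 0.127 for Bhlha15 and from 0.175 to 0.309 for Rbpjl, but limma called 0 of all genes in 3 of these 4 fits, so the lost calls there say nothing about these genes. The remaining fit, without the first polyI:C-treated AP mouse, still called other genes, but neither Bhlha15 nor Rbpjl. With 1 common prior variance adjusted p was 0.0781 for Bhlha15 and 0.195 for Rbpjl. For Rbpjl it was also 0.0702 and 0.0737 without the first and the second saline mouse, 0.0558 with only the 4 mice compared, 0.0732 without the filter, 0.104 with limma's default trend and 0.0592 after the added rescaling. Over the alternatives adjusted p ran from 0.00143 to 0.127 for Bhlha15 and 0.0114 to 0.309 for Rbpjl. In AP against saline mice Creb3l2, of a family of factors cleaved in the Golgi, fell from 39.9 and 41.5 TPM to 17.8 and 17.5 TPM (log2 fold change -1.18, adjusted p = 0.000931). Xbp1, a factor of the unfolded protein response and the most abundant of the list, rose from 798 and 849.6 TPM to 1692 and 1631 TPM (log2 fold change 1.01, adjusted p = 0.000419). Its value came to 0.58 after median-of-ratios scaling, 0.77 with voom, 0.80 after the added rescaling, 0.97 without the first saline mouse and 0.99 without the first AP mouse. The list had 1 raised and 3 lowered at a median of -0.73 against 0.45 in AP against saline mice, 2 raised at a median of 0.52 against 0.04 in polyI:C-treated AP against AP mice, and 2 lowered in polyI:C-treated AP against saline mice. Voom gave 0 raised and 5 lowered, 2 raised and 0 lowered and 0 raised and 2 lowered in these comparisons. Of all genes limma called 18.2% raised and 4.03% lowered, 0.44% and 0.404%, and 16.9% and 2.97%, and voom 10.7% raised and 5.82% lowered, 0.66% and 1.25%, and 8.94% and 4.84%.

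**Figure D3:**
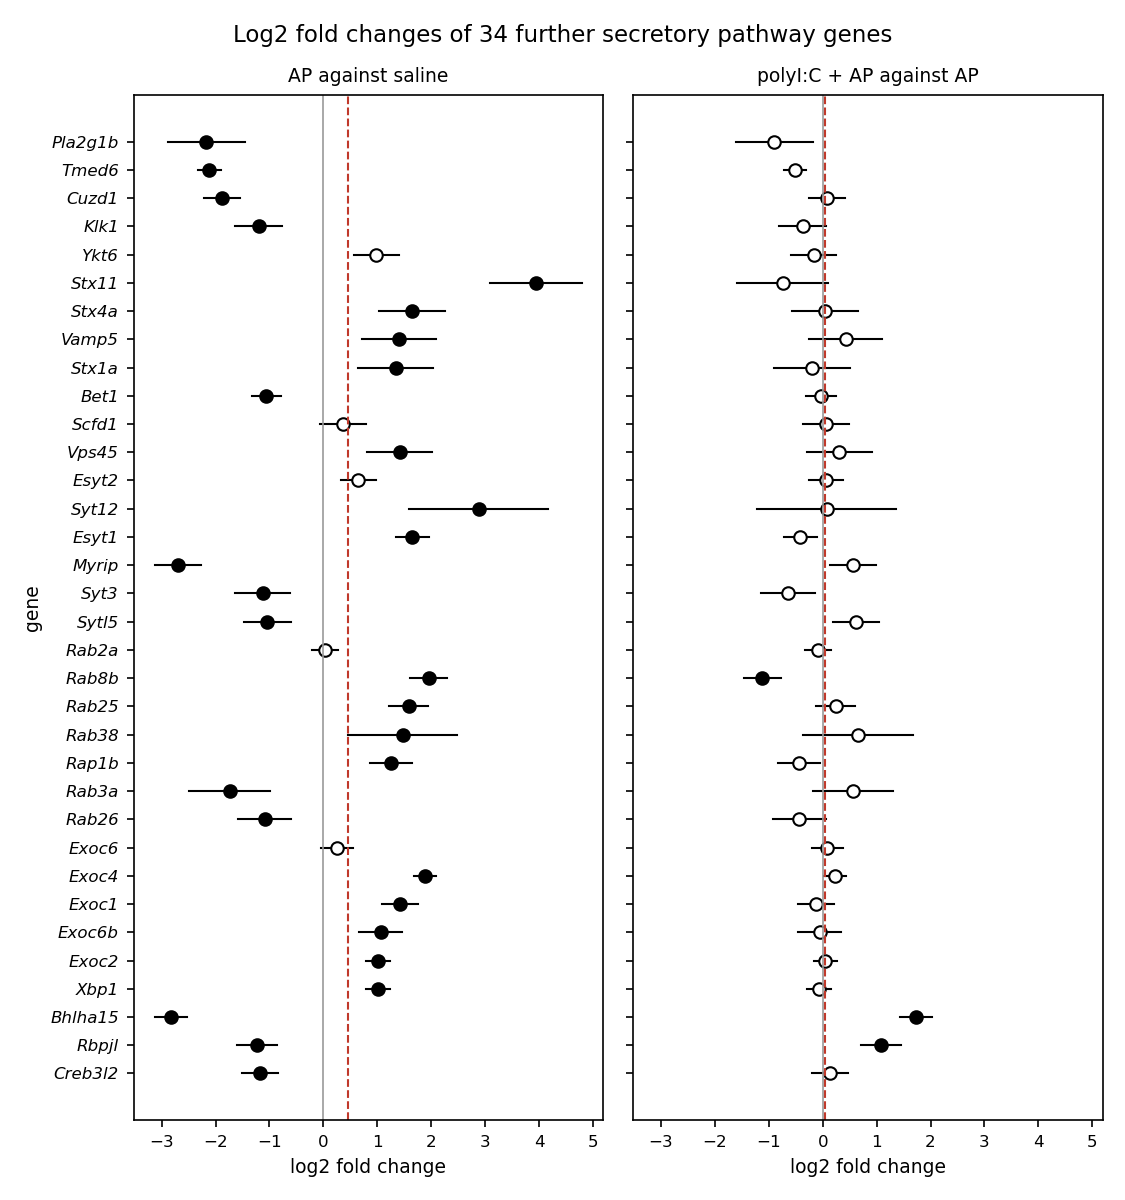
Log2 fold changes on the log2(TPM + 0.5) scale with 95% confidence intervals from limma for 34 further secretory pathway genes in 2 comparisons, with filled points for calls, a grey line at 0 and a dashed line at the median of all tested genes. Rab8b at -1.12, Rbpjl at 1.08 and Bhlha15 at 1.73 are the filled points of the second panel.

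Over the 7 lists of further genes together, 127 genes were tested, and 20 (15.7%), Syt12 among them, were raised and 13 (10.2%) lowered in AP against saline mice, beside 18.2% and 4.03% of all genes. With voom the numbers were 10 raised and 17 lowered, beside 10.7% raised and 5.82% lowered of all genes. Between polyI:C-treated AP and AP mice 2 (1.57%) were raised and 1 (0.787%) lowered, beside 0.44% and 0.404% of all genes, and voom gave 3 raised and 2 lowered, beside 0.66% and 1.25%. In the comparison of polyI:C-treated AP with saline mice 17 (13.4%) were raised and 12 (9.45%) lowered, beside 16.9% and 2.97% of all genes, and voom gave 10 raised and 12 lowered, beside 8.94% and 4.84%.

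Promoters are shown for Sycn and Stx3, the members past the threshold in both comparisons against saline mice, where Sycn was lower and Stx3 higher. RefSeq promoter windows (GRCm38.p6, 250 bases before to 50 bases after the start) matched 7 of the 10 genes, namely Gp2, Sycn, Vamp8, Snap23, Stx3, Stxbp2 and Rab3d. Vamp2, Rab27b and Syt7 had no entry. CATATG and CAGCTG, forms of the E-box that basic helix-loop-helix factors such as MIST1 and PTF1A bind, were searched on both strands, each being its own reverse complement, and were chosen after the values were seen. CATATG was present in 3.91% and CAGCTG in 16.3% of the 32851 windows of 300 bases, and neither was in any of the 7. No match says only that these letters are not in these windows. The 250 bases before the start follow, 5′ to 3′ on the strand of the gene, in lower case since no motif was matched. Sycn lies at chr7:28540635-28540884 on the plus strand and Stx3 at chr19:11819404-11819653 on the minus strand.
Sycn: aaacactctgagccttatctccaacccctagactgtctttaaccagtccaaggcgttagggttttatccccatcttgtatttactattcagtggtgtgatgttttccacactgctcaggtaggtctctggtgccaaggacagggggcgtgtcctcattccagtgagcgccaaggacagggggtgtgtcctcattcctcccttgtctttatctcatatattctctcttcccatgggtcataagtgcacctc
Stx3: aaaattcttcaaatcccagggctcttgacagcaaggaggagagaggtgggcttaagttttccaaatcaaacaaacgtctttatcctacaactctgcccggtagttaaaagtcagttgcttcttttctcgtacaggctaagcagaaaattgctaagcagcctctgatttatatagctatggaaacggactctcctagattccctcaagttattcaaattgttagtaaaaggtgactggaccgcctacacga

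Markers of cell types differed between the groups. The gene named as leading a list has its highest average over the 6 mice, and need not lead in each group. Of the 21 acinar markers 6 had values (28.6%), so this list is void as a check of the labelled tissue. The 6 summed to 2629 and 2351 TPM in saline mice, to 536 and 404 TPM in AP mice and to 615 and 649.7 TPM in polyI:C-treated AP mice, and its most abundant gene Ctrc, chymotrypsin C, stood at 1742 and 1677 TPM in saline mice, at 194 and 167 TPM in AP mice and at 159.7 and 141 TPM in polyI:C-treated AP mice. The 9 of 9 duct markers summed to 439 and 355 TPM in saline mice, to 1823 and 1712 TPM in AP mice and to 1539 and 1543 TPM in polyI:C-treated AP mice, led by the keratin gene Krt19 at 51.2, 62.4, 1016, 1041, 767 and 769 TPM in the order saline, AP and polyI:C-treated AP. Acinar markers were highest and duct markers lowest in the saline mice.

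Immune markers differed as well. The 9 of 9 macrophage and monocyte markers summed to 557 and 381 TPM in saline mice, to 2393 and 2642 TPM in AP mice and to 491 and 396 TPM in polyI:C-treated AP mice, led by Lyz2 at 444, 307, 1891, 2118, 203 and 119 TPM in the same order of mice. Cd14, picked out after its values were seen, stood at 15.7 and 13.9 TPM in saline mice, at 218 and 222 TPM in AP mice and at 216 and 209 TPM in polyI:C-treated AP mice, above Lyz2 in both mice of the last group. The 7 of 9 neutrophil markers with values, Ly6g and Mpo not being listed, summed to 16.6 and 5.15 TPM in saline mice, to 69.7 and 61.1 TPM in AP mice and to 42.7 and 20.6 TPM in polyI:C-treated AP mice, with the highest average for Retnlg, at 2.25, 2.77, 35.4, 28, 7.53 and 1.5 TPM. S100a9 stood at 6.59 and 1.16 TPM in saline mice, at 22.5 and 16.3 TPM in AP mice and at 19.4 and 10 TPM in polyI:C-treated AP mice. S100a8 stood at 6.26 and 0 TPM in saline mice, at 6.18 and 9.4 TPM in AP mice and at 11.6 and 6.16 TPM in polyI:C-treated AP mice. Both were picked out after their values were seen, and with polyI:C S100a9 was above Retnlg in both mice, while S100a8 overlapped with its values in AP mice. The AP mice were highest for both sums, but not for every neutrophil marker. The 7 of 8 T and NK lymphocyte markers, Trac not being listed, summed to 3.22 and 5.14 TPM in saline mice, to 1.65 and 4.51 TPM in AP mice and to 33.5 and 55.1 TPM in polyI:C-treated AP mice, led by Gzma, which was listed at 0 in all 4 mice without polyI:C and at 26.9 and 47 TPM with it. Gzmb, picked out after its values were seen, stood at 0 and 0 TPM in saline mice, at 0.66 and 0.522 TPM in AP mice and at 4.57 and 3.85 TPM in polyI:C-treated AP mice. The other 5, Cd3e, Cd3g, Cd4, Cd8a and Nkg7, did not average more with polyI:C than in saline mice, so the higher sum comes from Gzma and Gzmb. B lymphocyte markers (4 of 4, led by Cd79b) summed to 11 and 13.7 TPM in saline mice, to 5.89 and 42 TPM in AP mice and to 8.99 and 2.19 TPM in polyI:C-treated AP mice.

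Other cells that use the same machinery were also read. Islet endocrine markers (12 of 12, led by Iapp) summed to 2269 and 1932 TPM in saline mice, to 2401 and 1809.6 TPM in AP mice and to 1352 and 1765 TPM in polyI:C-treated AP mice. Neuron and Schwann cell markers (9 of 9, led by S100b) summed to 7.23 to 14.1 TPM over the 6 mice. Mast cell and platelet markers (6 of 6, led by Pf4) summed to 35.8 to 94.7 TPM, endothelial markers (6 of 6, led by Pecam1) to 56 to 87.9 TPM and adipocyte markers (5 of 5, led by Fabp4) to 43.5 to 100.2 TPM. No marker with values was at 0 in all 6 mice.

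Fibroblast and stellate markers (8 of 8) summed to 889 and 636 TPM in saline mice, to 826 and 1024 TPM in AP mice and to 878 and 729 TPM in polyI:C-treated AP mice. The sum was led by Dcn, which was lower in AP than in saline mice, at 671 and 539.5 TPM in saline mice, at 308 and 425 TPM in AP mice and at 503 and 366 TPM in polyI:C-treated AP mice. The collagen genes, picked out after their values were seen, went the other way. Col3a1 stood at 72.4 and 31.9 TPM in saline mice, at 302 and 348 TPM in AP mice and at 180.2 and 191 TPM in polyI:C-treated AP mice. Col1a2 stood at 20.3 and 12.2 TPM in saline mice, at 53.9 and 51.1 TPM in AP mice and at 38.4 and 35 TPM in polyI:C-treated AP mice. Col1a1 stood at 12.7 and 4.97 TPM in saline mice, at 32.8 and 31.7 TPM in AP mice and at 22.2 and 26.8 TPM in polyI:C-treated AP mice. All 3 were lowest in the saline mice and highest in the AP mice, with no overlap between groups. In AP against saline mice 4 of the 8 markers of this list were raised, as were 4 of 9 duct and 7 of 9 macrophage and monocyte markers, while 3 of 5 tested acinar markers and 1 of 4 tested mast cell and platelet markers were lowered, beside 18.2% raised and 4.03% lowered of all genes. Of the 7, Itgam stood at 0.923 and 0.681 TPM in saline mice and 8.08 and 8.48 TPM in AP mice. It was kept by the filter mainly through the AP mice, so its tests are not used as support. With polyI:C 5 of 9 macrophage and monocyte markers were lowered against AP mice, and 2 of 5 tested acinar markers were raised, beside 0.404% lowered and 0.44% raised of all genes. Those 2 are Bhlha15 and Rbpjl, also among the 3 acinar markers lowered in AP mice and in the list of transcription factors above, so these counts add no separate genes. The enzyme genes Ctrc and Prss1 were lower with polyI:C than in AP mice, without a call, Prss1 at 213 and 113 TPM in saline mice, at 129.6 and 67.6 TPM in AP mice and at 29.9 and 48.6 TPM in polyI:C-treated AP mice. Gzma and Gzmb, the only tested T and NK lymphocyte markers, passed the filter only through the polyI:C-treated AP mice, and the neutrophil marker Mmp8 only through the AP mice, so no share is given for these 2 lists. The part of these shifts in the results above was not tested.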

How the data were processed

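The pancreas libraries of 6 mice were grouped by the treatment in the labels, and p-values measure the spread between these mice. The authors deposited TPM per gene and mouse. According to the submitters' processing notes and the study's methods, reads were trimmed with Trimmomatic, mapped to mm10 with STAR and counted with HTSeq, and DESeq2 was used by the authors for their own tests. The step from counts to TPM is not given in the sources used here. The labels name both a ribosomal RNA depletion kit and a stranded mRNA kit.

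Symbols and exon lengths came from GENCODE M21 for 22490 of 22556 identifiers. As the files hold TPM and no read counts, limma 3.58.1 in R 4.3.3 was fitted to log2(TPM + 0.5) of all 6 mice, with 1 coefficient per group, for the 16814 genes that averaged 1 TPM or more. The prior variance followed log2(mean TPM × exon length + 1), and the Benjamini-Hochberg adjustment covered all tested genes. A call needs an adjusted p no higher than 0.05 and a change of 2-fold or more. The fit was tested on simulated data, where it missed nearly all changes of 2-fold and part of those of 4-fold. It also made false calls, which outnumbered the true ones with changes of 2-fold and were a share somewhat above the nominal level with those of 4-fold. A first requirement on the share of the latter called was not met, and was lowered and then dropped after this was seen. A gene without a call is therefore not shown to be unchanged. Counts, ratios and motifs were computed with Python 3.11.15, numpy 2.4.6 and pandas 2.3.3, and plots with matplotlib 3.10.9.

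The members and lists were chosen with earlier results of these data known. Named genes are the members, the most abundant gene of each list in the saline mice, up to 4 genes per direction and list with the largest change among those past the threshold in AP against saline or polyI:C-treated AP against AP mice, the most abundant gene of each marker list, and the 3 protein-coding genes averaging 10 TPM or more and most like each member past the threshold. Vamp3, Stxbp3 and Rab27a, named beside their paralogues, and Prss1 and Reg3a were chosen after their values were seen. The marker lists cover acinar, duct, islet endocrine, neuron and Schwann, macrophage and monocyte, neutrophil, T and NK lymphocyte, B lymphocyte, mast cell and platelet, endothelial, fibroblast and stellate, and adipocyte cells. Alternatives were other pseudocounts, filters, scalings, prior variances and samples in the fit, the replicate number as a block, leaving out each mouse in turn and voom on the estimated reads.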

Additional observations from a re-analysis of the deposited data

How the results depend on the processing

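Each result was computed under 17 alternatives, 1 of them, the rescaling without genes over 1% of a library, chosen after seeing the data. Syt7 and Stx1a have 16, as the filter at 5 TPM leaves them out. Of 456 member values, 428 kept their direction and side of the threshold, and of 1731 values of other named genes 1594 did. In AP against saline mice 3730 genes passed, and 2399 (without the second AP mouse) to 3648 when a mouse was left out, where members past it numbered 1 to 3. Between polyI:C-treated AP and AP mice 142 genes passed, and 90 without the filter, 41 with 1 common prior variance, 28 with the default trend, 322 with voom and 0 to 80 when a mouse was left out. There 1 member passed with the replicate block and 1 with voom. Deviations from the group mean of mice with equal numbers had r of 0.0075, -0.00385 and 0.0351 across genes, which are not independent replicates. With 1 such difference per group, these values cannot decide whether equal numbers mark paired mice. In polyI:C-treated AP against saline mice 4 members passed after the added rescaling. Directions reversed in AP against saline mice after median-of-ratios scaling for Vamp8 (-0.0517), Scfd1 (-0.064), Rab2a (-0.40) and Exoc6 (-0.17), and for Rab2a with voom (-0.21) and the added rescaling (-0.18). In polyI:C-treated AP against saline mice they reversed after median-of-ratios scaling for Vamp2 (-0.32), Scfd1 (-0.0328) and Exoc6 (-0.11), and for Vamp2 with voom (-0.19) and the added rescaling (-0.12). Leaving out a mouse reversed others, with log2 fold changes in AP against saline mice of -0.59 to 0.19 for Vamp2 and -0.0512 to 0.11 for Rab2a. Between polyI:C-treated AP and AP mice these ran from -0.16 to 0.063 for Snap23, -0.19 to 0.40 for Syt7, -0.0615 to 0.22 for Cuzd1, -0.045 to 0.13 for Stx4a, -0.09 to 0.0224 for Bet1, -0.0604 to 0.17 for Scfd1, -0.11 to 0.25 for Esyt2, -0.12 to 0.26 for Syt12, -0.0123 to 0.11 for Exoc2, -0.13 to 9e-04 for Xbp1 and -0.0431 to 0.30 for Creb3l2, and in polyI:C-treated AP against saline mice from -0.27 to 0.51 for Vamp2, -0.23 to 0.22 for Vamp8 and -0.14 to 0.0145 for Rab2a. A group left with 1 mouse was assumed to vary like the others. The cause was not tested. Members had as few as 32.4 (Syt7) and 34.4 (Vamp2) estimated reads in a mouse, and the part of depth in their results was not tested.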
